A study of Rattus norvegicus with 8 samples.

Results

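The enzymes that break down the branched-chain amino acids leucine, isoleucine and valine were examined in the epitrochlearis of the rat, a thin forelimb muscle made mostly of fast fibres. The set holds 10 genes chosen by their place in the pathway: the transaminase Bcat2, the ketoacid dehydrogenase subunits Bckdha, Bckdhb and Dbt, its kinase Bckdk and phosphatase Ppm1k, and the later enzymes Ivd, Acad8, Hibch and Hibadh. Every probe set whose single annotated symbol was one of these genes was taken, which gave 14 of the 31042 probe sets tested. All 10 genes were measured, 7 of them by 1 probe set. Of the 14 probe sets, 0 differed between the meals past the threshold over all probe sets. The largest standardized differences were those of Bcat2 and Acad8, higher after the hydrolysate as deposited but lower with quantile normalization, and of 1 of the 3 Ppm1k probe sets, lower after it.

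The series asked whether whey protein hydrolysate, milk whey protein cut into peptides, acts on muscle gene expression differently from free amino acids of the same composition. Male Sprague-Dawley rats, 6 weeks old and used to swimming through 3 days of practice, swam for 2 h and were then given a meal of 44 kJ by gavage. The meal held carbohydrate with whey protein hydrolysate (WPH, n = 4) or carbohydrate with the amino acid mixture (AAM, n = 4), and each array is labelled as a biological replicate. Both groups carried the same strain, diet restriction, exercise and carbohydrate, and the meals differed in the form of the amino nitrogen. No unfed or resting muscle was compared. The labels give no array batch and do not say which 4 rats shared a barrel, so their part cannot be told apart from that of the meal. No source used here states the time from meal to sampling.

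Branched-chain amino acids differ from most others in that muscle, rather than liver, carries out much of their first step. The mitochondrial transaminase moves their amino group to 2-oxoglutarate, and the branched-chain ketoacid dehydrogenase complex then removes a carboxyl group irreversibly. That complex is switched off when its kinase phosphorylates the E1 alpha subunit and switched on again by its phosphatase, and exercise is known to raise its activity in rat muscle. Beyond it the 3 carbon skeletons follow separate routes. Leucine gives acetyl-CoA and ketone bodies, valine gives propionyl-CoA, and isoleucine gives both acetyl-CoA and propionyl-CoA.

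The deposited levels are on a log2-like scale, with array medians all near 6.66. Arrays differed minutely on this scale: the SD over the 8 arrays had a median of 3.69 millionths of a unit. A difference can therefore not be read as a fold change. Values for single arrays are given below as the deviation from the mean of the 8 arrays, in millionths of a log2-like unit. The size of a difference is the standardized difference, the WPH mean less the AAM mean in units of the pooled within-meal SD, with a 95% interval from the noncentral t distribution. AAM replicate 3 stood apart most often, being the highest or lowest of the 8 arrays in 33.2% of probe sets, where 25% would be an equal share, and WPH replicate 2 least often, in 19.8%. Muscle markers were as the tissue label requires. Acta1, Ckm, Mb, Tnnt3, Tnni2, Ttn and Des had mean levels between 12.8 and 14.2, and the 4 liver markers Alb, Apoa1, Ttr and Serpina1 lay below the array median, between 5.82 and 6.57.

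Bcat2, the mitochondrial transaminase that opens the pathway, had the largest standardized difference of the set. Its deviations (probe set 1386928_at, mean level 8.94) were 27.0, 42.9, 54.2 and 15.6 millionths in WPH replicates 1 to 4, against -28.2, -19.9, -76.7 and -14.7 millionths in AAM replicates 1 to 4. All 4 WPH arrays lay above all 4 AAM arrays, and the lowest value, that of AAM replicate 3, was far below the rest. The mean deviation was 34.9 ± 17.1 millionths after WPH and -34.9 ± 28.4 millionths after AAM (SD, n = 4 each). The standardized difference was 2.98 (95% interval 0.782 to 5.08), and 0.19% of all probe sets had a larger one. The exact two-sided permutation p was 0.0286, the smallest that 70 assignments of 8 arrays allow, and limma's p was 0.00371 unadjusted and 0.9998 adjusted over all probe sets. Leaving out AAM replicate 3 gave a standardized difference of 4.02 rather than a smaller one. Its direction held with median centring of the arrays (1.53) but turned with quantile normalization (-1.0), where the probe set occupied only ranks 28094 and 28095 in the 8 arrays. Median centring put the median over all probe sets at -0.51, against -0.04 as deposited. It moves every probe set of an array by 1 amount, so the move in SD units differs with the SD of a probe set. The value of -0.51 is thus no common zero for single probe sets. Around the level of Bcat2, neighbouring probe sets were on average 444 millionths apart, against a pooled SD of 23.5 millionths for Bcat2. The part of this spacing in the turned sign was not tested. Adipocyte markers, of which 6 of 6 were measured, are given here because adipose tissue expresses Bcat2 as well. Their list score, the mean z-score of the members, ranged from -0.757 to 0.619 after WPH and from -1.07 to 1.19 after AAM. Only 2 of the 6 had a mean level above the array median, and their part in the Bcat2 values was not tested. Of 15 marker lists, the skin and epithelium list is given because its score separated the meals without overlap, in the direction opposite to Bcat2. It was picked after the scores were seen, and 2.86% of random splits of 8 arrays give no overlap. The skin and epithelium score, over 5 markers of which 2 had levels above the array median, ranged from -0.358 to -0.222 after WPH and from 0.0595 to 0.553 after AAM. Its 5 members had standardized differences of -1.66 (Epcam), -1.59 (Ivl), -0.70 (Krt14), -0.29 (Krt5) and 0.49 (Krt10). The 2 with levels above the array median were Krt14 (6.79) and Krt10 (6.70), which differed in direction. The lymphocyte list is another of the 15, and its scores overlapped between the meals. They ranged from -0.972 to 0.0324 after WPH and from -0.327 to 1.26 after AAM. All 4 of its measured markers had lower means after WPH, at low levels of 6.42 to 6.85, of which 1 was above the array median. The part of both lists in the differences of Bcat2, Acad8 and Ppm1k 1392921_at was not tested.

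The proximal promoters of Bcat2 and of Acad8, the members whose levels were higher after WPH at an unadjusted p below 0.05, though not with quantile normalization, are printed as the RefSeq windows from 250 bases before to 50 bases after the annotated start (GRCr8). Bcat2 lies on the plus strand at chr1:105178889-105179188 and Acad8 on the minus strand at chr8:33665493-33665792. Capitals mark 3 motifs, searched on both strands with overlaps allowed: CACCC, a box bound by Krüppel-like factors; GGGCGG, the GC box; and AAGGTCA, a site of estrogen-related receptors.
Bcat2: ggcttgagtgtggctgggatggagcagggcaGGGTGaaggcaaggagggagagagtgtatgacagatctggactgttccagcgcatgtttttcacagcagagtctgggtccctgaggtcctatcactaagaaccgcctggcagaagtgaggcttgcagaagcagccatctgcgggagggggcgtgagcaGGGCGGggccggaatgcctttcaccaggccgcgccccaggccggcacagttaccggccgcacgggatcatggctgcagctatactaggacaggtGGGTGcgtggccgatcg
Acad8: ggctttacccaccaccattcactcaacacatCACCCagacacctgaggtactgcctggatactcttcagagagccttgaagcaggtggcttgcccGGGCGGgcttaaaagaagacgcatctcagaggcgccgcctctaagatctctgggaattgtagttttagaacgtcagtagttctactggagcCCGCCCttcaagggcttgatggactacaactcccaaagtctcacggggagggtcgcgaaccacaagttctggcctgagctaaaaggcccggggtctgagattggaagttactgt
The Bcat2 window held 2 CACCC boxes and 1 GC box, and the Acad8 window held 1 CACCC box and 2 GC boxes. Promoter windows were matched for 8 of the 10 genes. CACCC and the GC box each occurred in all 8 windows, and in 54.9% and 33.1% of all 33469 promoters in the table. The receptor site was in 0 of the 8 windows and in 4.61% of all promoters. These matches describe the letters of the windows and show no binding.

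**Figure D1:**
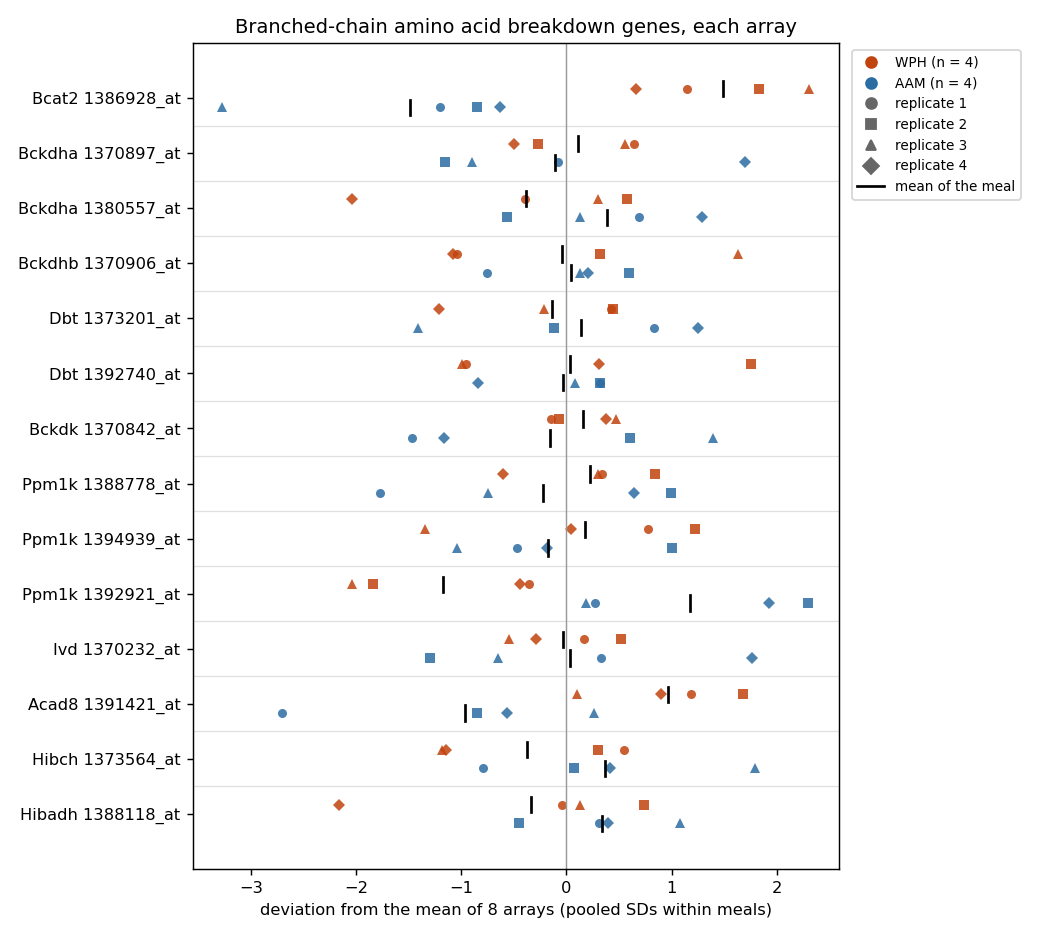
Each point is 1 array, plotted as its deviation from the mean of the 8 arrays in pooled SDs within meals (horizontal axis), for the 14 probe sets in pathway order (vertical axis). WPH is drawn above AAM in each row, black ticks are the means of 4 arrays and symbols give the replicate. The meals separate without overlap for Bcat2 1386928_at (WPH above as deposited, below on average with quantile normalization) and Ppm1k 1392921_at (WPH below).

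The ketoacid dehydrogenase complex showed no difference between the meals that was larger than the spread between arrays. Bckdha, the E1 alpha subunit that carries the regulatory phosphorylation, had deviations of 18.1, -7.53, 15.7 and -14.0 millionths in WPH replicates 1 to 4, against -2.37, -32.6, -25.2 and 47.9 millionths in AAM replicates 1 to 4 (1370897_at, mean level 9.29). The WPH values lay within the range of the AAM values, which AAM replicate 4 stretched upward. This gave a standardized difference of 0.22 (95% interval -1.18 to 1.60; exact permutation p = 0.8), a sign that turned without AAM replicate 2 or AAM replicate 3 (-0.14 and -0.04) and with median centring (-0.22). The second Bckdha probe set, 1380557_at at a level of 6.14 below the array median, had -0.78 (-2.20 to 0.704). Bckdhb, the E1 beta subunit, was among the steadiest probe sets of the array. Its 8 values spanned 1.41 millionths, and its pooled SD of 0.519 millionths stood at the 7.44th percentile of all probe sets. Its standardized difference was -0.09 (-1.47 to 1.30).

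Dbt, the E2 core onto which the other subunits assemble, was at the opposite end. Its probe set 1373201_at (mean level 10.60) had deviations of 223, 233, -111 and -636 millionths in WPH replicates 1 to 4, against 438, -60.5, -744 and 658 millionths in AAM replicates 1 to 4. The 2 lowest arrays were AAM replicate 3 and WPH replicate 4, 1 from each meal, and the meals overlapped widely. The range of 1403 millionths and the pooled SD of 526 millionths, at the 97.4th percentile of all probe sets, were the largest of the set. Between the meals the standardized difference was -0.28 (95% interval -1.66 to 1.13; exact permutation p = 0.657). The other Dbt probe set, 1392740_at at a level of 6.34, spanned 2.37 millionths and had 0.06 (-1.33 to 1.44). Over the 8 arrays the 2 Dbt probe sets had a Pearson r of -0.12, so the wide spread of the brighter one was not seen in the dimmer one.

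The kinase and the phosphatase of the complex likewise gave no call. Bckdk, whose product inactivates the complex, had deviations of -2.01, -0.895, 6.29 and 5.07 millionths in WPH replicates 1 to 4, against -19.5, 8.04, 18.5 and -15.5 millionths in AAM replicates 1 to 4 (1370842_at, mean level 9.78). The 4 WPH arrays all lay inside the AAM range. The SD was 4.17 millionths after WPH and 18.4 millionths after AAM, a contrast in spread that was not tested. Between the means the standardized difference was 0.32 (95% interval -1.09 to 1.70; exact permutation p = 0.657), with a reversed sign under median centring (-0.29).

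Ppm1k, the mitochondrial phosphatase that reactivates the complex, was measured by 3 probe sets that did not give 1 direction. The brightest, 1388778_at (mean level 9.59), had deviations of 7.36, 18.3, 6.52 and -13.1 millionths in WPH replicates 1 to 4, against -38.5, 21.7, -16.2 and 13.9 millionths in AAM replicates 1 to 4. The meals overlapped, with a standardized difference of 0.44 (95% interval -0.983 to 1.83) that turned with median centring (-0.064) and quantile normalization (-0.46). The second, 1394939_at (level 7.17), had 0.35 (-1.06 to 1.74) and turned under the same settings (-0.30 and -0.63). It ranged from 0.0019 to 1.12 with 1 array left out.

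The dimmest, 1392921_at (level 6.34), behaved otherwise. Its deviations were -0.985, -5.08, -5.62 and -1.23 millionths in WPH replicates 1 to 4, against 0.749, 6.34, 0.524 and 5.30 millionths in AAM replicates 1 to 4. All 4 WPH arrays lay below all 4 AAM arrays, by a smallest gap between WPH replicate 1 and AAM replicate 3. The standardized difference was -2.34 (95% interval -4.19 to -0.398; exact permutation p = 0.0286, the smallest possible; limma's p = 0.0125 unadjusted and 0.9998 adjusted). It was -0.77 with median centring, where the median of all probe sets was -0.51, and -0.24 with quantile normalization. Its level was below the array median of 6.66, whereas both other probe sets of the gene lay above it.

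Among the later enzymes, Ivd stands for the leucine branch. Its product, isovaleryl-CoA dehydrogenase, takes the leucine skeleton on from the complex. Ivd had deviations of 0.701, 2.22, -2.33 and -1.22 millionths in WPH replicates 1 to 4, against 1.40, -5.53, -2.76 and 7.51 millionths in AAM replicates 1 to 4 (1370232_at, mean level 10.64). The WPH arrays were again inside the AAM range. The standardized difference was -0.07 (95% interval -1.46 to 1.32; exact permutation p = 0.943), and its sign turned in 4 of the 8 fits with 1 array left out.

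The other 3 later enzymes belong to the valine branch and did not share a direction. Acad8, isobutyryl-CoA dehydrogenase, had deviations of 15.2, 21.6, 1.31 and 11.5 millionths in WPH replicates 1 to 4, against -34.8, -11.0, 3.34 and -7.21 millionths in AAM replicates 1 to 4 (1391421_at, mean level 7.79). The meals overlapped through 1 pair of arrays, AAM replicate 3 lying just above WPH replicate 3, and AAM replicate 1 was the lowest. The mean deviation was 12.4 ± 8.47 millionths after WPH and -12.4 ± 16.1 millionths after AAM (SD, n = 4 each). The standardized difference was 1.93 (95% interval 0.133 to 3.63; exact permutation p = 0.0571; limma's p = 0.0266 unadjusted and 0.9998 adjusted). It was 2.61 without AAM replicate 3 and 0.64 with median centring, and it turned to -1.10 with quantile normalization.

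Hibch, 3-hydroxyisobutyryl-CoA hydrolase, which frees 3-hydroxyisobutyrate from coenzyme A, had a standardized difference of -0.74 (95% interval -2.16 to 0.731; 1373564_at, mean level 9.17). Its deviations ran from -12.9 to 5.97 millionths after WPH and from -8.62 to 19.6 millionths after AAM. WPH replicates 3 and 4 were the lowest arrays and AAM replicate 3 the highest. Hibadh, 3-hydroxyisobutyrate dehydrogenase, which oxidizes the product of Hibch, had -0.67 (-2.08 to 0.791; 1388118_at, mean level 11.73). Its deviations ran from -7.07 to 2.42 millionths after WPH and from -1.48 to 3.52 millionths after AAM. The low value was that of WPH replicate 4, and with WPH replicate 4 and AAM replicate 3 both left out the standardized difference was 0.43. Within the valine branch the estimates thus lay above 0 for Acad8 and below it for Hibch and Hibadh, whose intervals included 0.

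**Figure D2:**
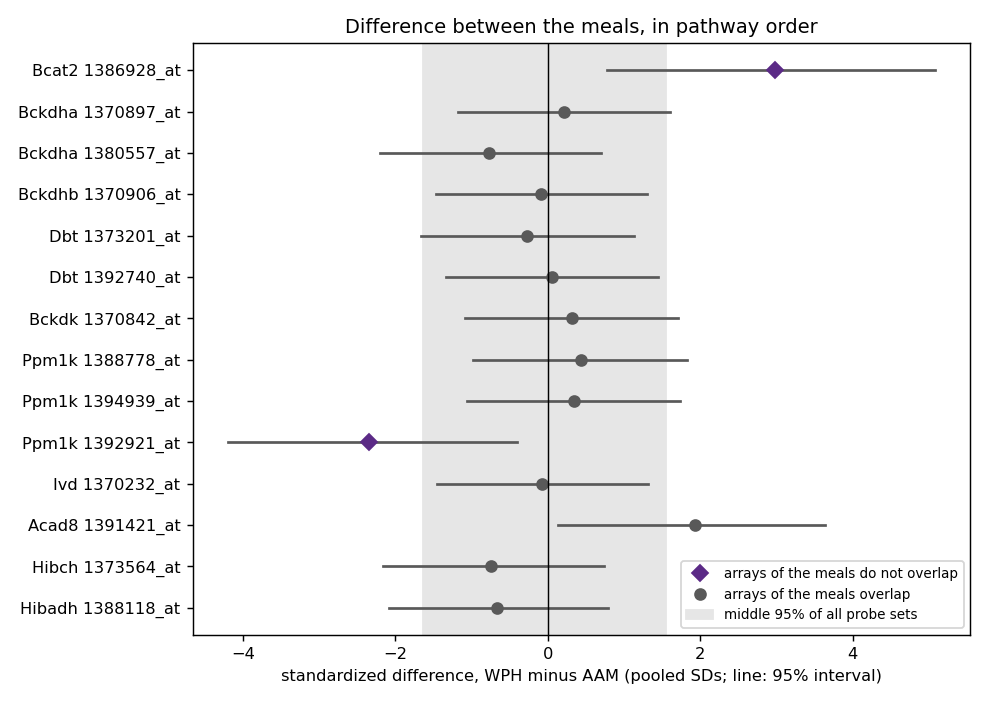
Standardized differences, WPH minus AAM in pooled SDs (horizontal axis), with 95% intervals as lines, for the 14 probe sets in pathway order (vertical axis). The grey band is the middle 95% of all probe sets, -1.64 to 1.55. Diamonds mark probe sets whose meals did not overlap. Bcat2 (2.98), Acad8 (1.93) and Ppm1k 1392921_at (-2.34) lie outside the band; with quantile normalization Bcat2 and Acad8 lay below 0.

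By count, 0 of the 14 probe sets had a limma adjusted p below 0.05, and 0% of all 31042 probe sets did. At an unadjusted p below 0.05 there were 3 of 14, Bcat2, Acad8 and Ppm1k 1392921_at, against 3.58% of all probe sets. That count was 0 of 13 with quantile normalization, 0 of 14 with median centring and 2 of 14 with the replicate number as a block, where Acad8 had an unadjusted limma p of 0.0783. By direction these were 2 higher after WPH, where 1.71% of all were, and 1 lower, where 1.86% were. The arrays of the meals did not overlap for 2 of 14, against 2.23% of all. WPH lay above for 1 of them, Bcat2, as for 1.08% of all probe sets, and below for the other, Ppm1k 1392921_at, as for 1.15%. The members divided evenly in direction, 7 higher and 7 lower after WPH, where 47.3% of all probe sets were higher. Their median standardized difference was -0.01, against -0.04 over all probe sets, and the median size without sign was 0.40, against 0.45. The members thus held 3 probe sets outside the middle 95% of the array, in both directions, while the list as a whole was centred like the rest. Only 7 of the 14 kept their sign in each of the 8 fits with 1 array left out, Bcat2 (2.65 to 4.02), Acad8 (1.64 to 2.61) and Ppm1k 1392921_at (-2.75 to -2.04) among them.

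**Figure D3:**
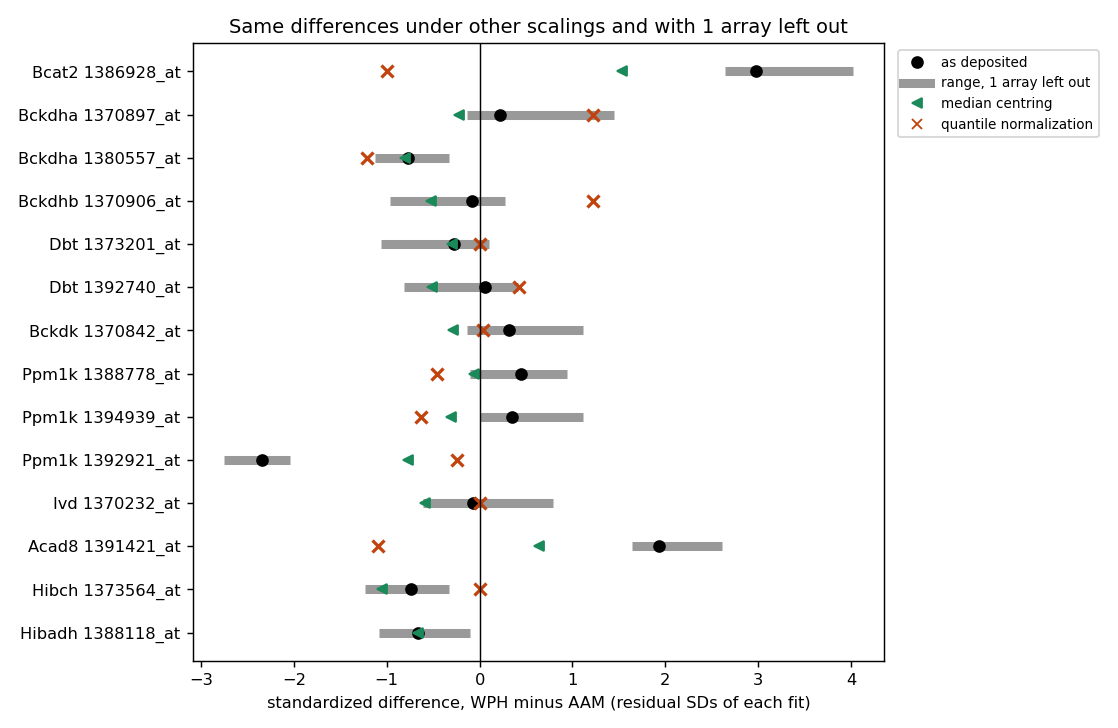
Standardized differences, WPH minus AAM in residual SDs of each fit (horizontal axis), for the 14 probe sets (vertical axis). Black points use the values as deposited, grey bars span the 8 fits with 1 array left out, green triangles use median centring and orange crosses quantile normalization. Hibadh has no cross because its rank was the same on all arrays. Bcat2 lies at 2.98 as deposited, 1.53 with median centring and -1.0 with quantile normalization.

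How far probe sets of 1 gene agreed bears on the genes measured more than once. Bckdha, Dbt and Ppm1k give 5 pairs of probe sets, and 1 of the 5 had the same direction, Ppm1k 1388778_at with 1394939_at (r = 0.53 over the 8 arrays). That pair was also the only one of the 5 with both levels above the array median. The 2 Bckdha probe sets had r = 0.52 but opposite directions. Over the array, 9597 pairs from 4525 genes had a median r of 0.31 and the same direction in 56.6%, and 3798 pairs with both levels above the median had a median r of 0.57 and the same direction in 62.6%.

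Across the 8 arrays, 0 of 45 pairs of the 10 genes had a correlation that passed adjustment, and the pairs with the lowest p joined Dbt, Bckdk, Ivd and Bckdha. Bckdk and Dbt had the lowest p. Pearson's r was -0.87 (exact permutation p = 0.00734, adjusted p = 0.330 over 45 pairs of genes) and Spearman's rho -0.86 (exact permutation p = 0.0107, adjusted p = 0.241). Within the meals r was negative in both, with r = -0.78 over the 4 WPH arrays and -0.95 over the 4 AAM arrays, and r was -0.80 without the 2 arrays farthest from the Bckdk median and -0.79 without AAM replicate 3. AAM replicates 1 and 4 were low for Bckdk and high for Dbt, and AAM replicate 3 was the reverse.

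Bckdk and Ivd had r = -0.76 (exact permutation p = 0.0288, adjusted p = 0.432) and rho = -0.86 (exact permutation p = 0.0107, adjusted p = 0.241), and r = -0.67 without the 2 arrays farthest from the Bckdk median. For Ivd and Dbt the values were similar in size and positive (r = 0.71, exact permutation p = 0.0474, adjusted p = 0.533; rho = 0.81, exact permutation p = 0.0218, adjusted p = 0.327; r = 0.92 without the 2 arrays farthest from the Dbt median). Ivd and Bckdha had r = 0.80 (exact permutation p = 0.0169, adjusted p = 0.381) and rho = 0.71 (exact permutation p = 0.0576, adjusted p = 0.518). That last relation rested on 2 arrays, since r was 0.22 without the 2 arrays farthest from the Bckdha median. Adjustment was by Benjamini-Hochberg for either coefficient, and 4 of the 45 pairs had an unadjusted Pearson p below 0.05. Bckdhb, the E1 beta subunit, had r = 0.05 with Bckdha, 0.01 with Dbt, 0.31 with Bckdk and -0.22 with Ivd. Of all other genes, 2.98% had a lower r with Bckdk than Dbt had, and 9.19% a lower one than Ivd.

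The same AAM arrays carried the extremes of a mitochondrial content score. The mean z-score of 9 measured mitochondrial genes, Cs and Cox4i1 among them, was -1.22 in AAM replicate 1 and 1.41 in AAM replicate 3, the lowest and highest of the 8 arrays, which were also the lowest and highest for Bckdk. The score ranged from -0.452 to 0.426 after WPH and from -1.22 to 1.41 after AAM, and its part in the Bckdk pairs was not tested.

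**Figure D4:**
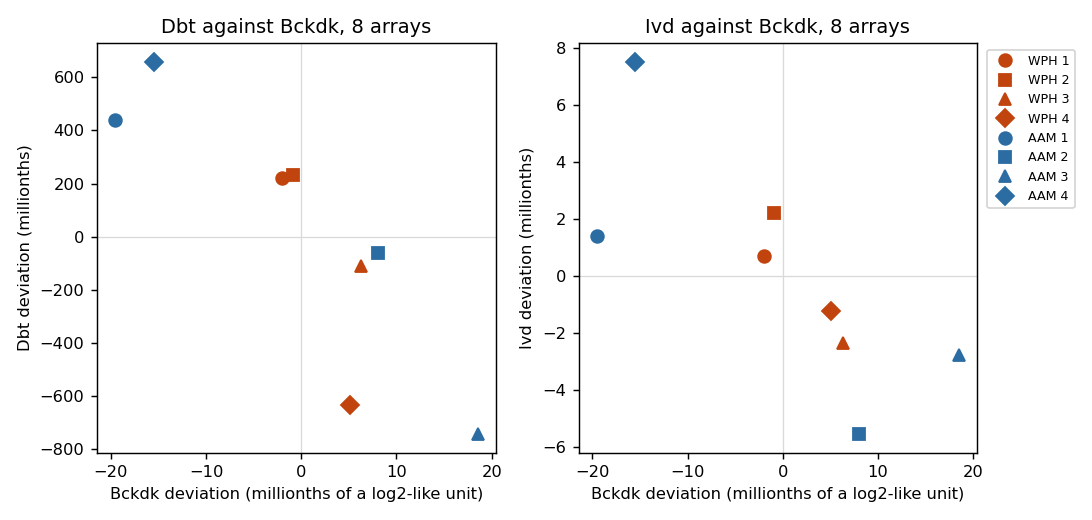
Deviations from the mean of 8 arrays, in millionths of a log2-like unit, of Dbt (left, vertical axis) and Ivd (right, vertical axis) against Bckdk (horizontal axes). Each symbol is 1 array, orange for WPH and blue for AAM. Both panels slope downward (r = -0.87 and -0.76), with AAM replicates 1 and 4 at the left and AAM replicate 3 at the right.

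**Figure D5:**
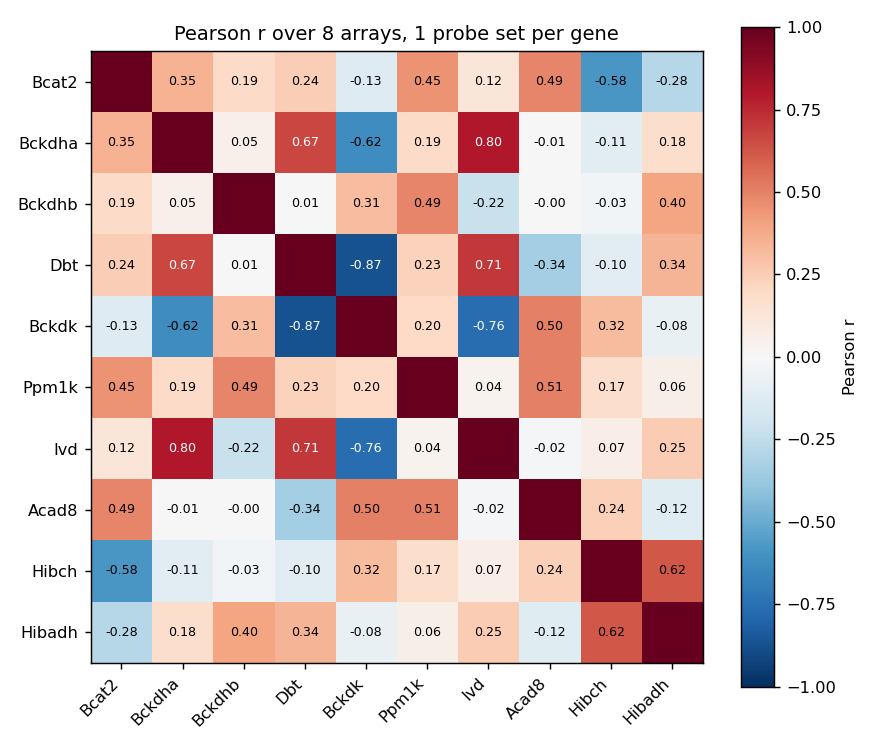
Pearson r over the 8 arrays for each pair of the 10 genes, with the brightest probe set standing for each gene, in pathway order on both axes. Colour runs from blue (-1) to red (1). The lowest value is that of Dbt with Bckdk (-0.87) and the highest that of Bckdha with Ivd (0.80).

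Bcat2 was in none of the pairs with an unadjusted p below 0.05. Its r with the other members ran from -0.58 with Hibch to 0.49 with Acad8, and 9.29% of all other genes had a higher r than Acad8. Within meals the Bcat2 and Acad8 values had r = -0.46, so the positive value over 8 arrays was not present within them. For Bcat2 and Dbt it was the reverse, with r = 0.24 over 8 arrays and 0.77 within meals (0.49 over the 4 WPH arrays and 0.87 over the 4 AAM arrays). The 5 genes most like Bcat2 by Pearson r over the 8 arrays, of 14216 ranked, were Mboat1 (0.97), Nfkb2 (0.97), Usp25 (0.93), Slc38a4 (0.93) and Igf1r (0.92). Mboat1 encodes a lysophospholipid acyltransferase, Nfkb2 a subunit of NF-kB, Usp25 a deubiquitinase, Slc38a4 a transporter of neutral amino acids and Igf1r a growth factor receptor. Their standardized differences between the meals were 2.38, 3.13, 2.45, 1.43 and 1.49. A ranking by likeness to Bcat2, whose meals did not overlap, favours genes that differ between the meals in the same direction. These values are therefore no separate result about the meals. The 5 most like Bckdk were Isoc1 (0.98), E2f6 (0.97), Atoh8 (0.97), Cyc1 (0.96) and Ect2 (0.96), with standardized differences between 0.07 (Cyc1, a subunit of respiratory complex III) and 0.41 (E2f6, a transcription factor). These likenesses were picked as the highest of many and are descriptions.

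The remaining pathway gave no call either. Of 16 further breakdown enzymes measured, 0 passed the test in either direction, as for 0% of all probe sets. After WPH 13 had lower and 3 higher means, where 47.3% of all probe sets were higher. Their median standardized difference was -0.38, against -0.04 over all probe sets. The list score overlapped between the meals, from -0.964 to 0.347 after WPH and from -0.581 to 0.571 after AAM. Its lowest arrays were WPH replicate 4 and AAM replicate 1. Dld, the E3 subunit shared with the pyruvate and 2-oxoglutarate complexes, had -0.79 (95% interval -2.22 to 0.691), and the cytosolic transaminase Bcat1 had -0.97 (-2.43 to 0.548). On the leucine route, the methylcrotonyl-CoA carboxylase subunits Mccc1 and Mccc2 had -0.35 and -0.10, and the hydratase Auh had 0.20. On the isoleucine route, Acadsb had -0.43 and Hsd17b10 had -0.28. On the valine route, Aldh6a1, the semialdehyde dehydrogenase downstream of Hibadh, had the highest value of the list, 1.15 (-0.416 to 2.63), and both of its probe sets were above 0. The propionyl-CoA enzymes Pcca, Pccb and Mmut had -0.23, -0.02 and -0.71. The lowest value of the list was that of Hadha, a subunit of the mitochondrial trifunctional protein named after its value was seen, at -1.21.

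Among carriers and regulators of the pathway the meals did not overlap for 1 gene, Esrra, as for 2.23% of all probe sets. Of 11 measured, 0 passed and 7 were lower after WPH, with a median of -0.07. Esrra, the estrogen-related receptor alpha that drives mitochondrial genes, had -2.04 (95% interval -3.78 to -0.207; exact permutation p = 0.0286; limma's p = 0.0212 unadjusted and 0.9998 adjusted). Esrra had deviations of -2.68, -8.48, -3.59 and -32.1 millionths in WPH replicates 1 to 4, so WPH replicate 4 lay far below the others. Its values under other scalings were not examined. The Esrra coactivator Ppargc1a had -0.05, and Klf15, a factor that induces Bcat2 in rat muscle, had 0.07 (-1.32 to 1.46). Only 2 of the 3 Klf15 probe sets had that direction. Slc25a44, a mitochondrial carrier of branched-chain amino acids, had -0.23. The amino group acceptors and their partners, 6 of 7 measured, had 4 higher and 2 lower means, with Glul, the glutamine synthetase, at 0.56, the alanine aminotransferase Gpt at -0.02 and the aspartate aminotransferase Got2 at 0.14.

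The pyruvate and 2-oxoglutarate dehydrogenases, built on the same plan as the branched-chain complex, and their kinases and phosphatases had 5 higher and 7 lower means among 12 measured, with 0 calls and a median of -0.25. Pdha1, the E1 alpha of pyruvate dehydrogenase, had 0.26, its kinases Pdk2 and Pdk4 had -0.41 and 0.02, and its phosphatase Pdp1 had -0.93 (95% interval -2.38 to 0.581). Of the 2 Pdk4 probe sets, 1 had the direction given. The Pdk4 probe set given was steadier than Bckdhb, with a pooled SD at the 2.53rd percentile. Its mean level was 13.75, where the highest value on the arrays was 14.2, and the part of its level in this was not tested. Of the mitochondrial content list, 3 were higher and 6 lower among 9, and Cs, the citrate synthase, had -0.51, a direction shared by 3 of its 4 probe sets. Over these 5 lists, 0 of 54 measured genes were called, where 0% of all probe sets were. An unadjusted limma p below 0.05 was met by 1 of the 54, against 3.58% of all probe sets. Meals that did not overlap were found for 1, against 2.23%.

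The fast fibre score had its extremes in WPH replicate 4 and AAM replicate 3. Over 6 measured markers it was 1.09 in WPH replicate 4, within a WPH range of -0.202 to 1.09 and an AAM range of -0.738 to 0.0257, and the lowest was AAM replicate 3. The slow fibre score over 6 markers ranged from -1.30 to 0.959 after WPH and from -0.534 to 1.07 after AAM, lowest in WPH replicate 3 and highest in AAM replicate 4. WPH replicate 4 and AAM replicate 3 were the lowest arrays for Dbt, and the part of fibre type in the values of Dbt and Hibadh was not tested. In whole muscle, fewer cells of a type and less RNA per cell cannot be told apart.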

How the data were processed

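Biotin-labelled RNA from the epitrochlearis of 8 rats was measured on 3' Affymetrix arrays, 1 array per rat. The log2-like expression values are used as deposited by the authors, and no source used here gives the method of summary and normalization; R 2.7.2 is named per the submitters' processing notes. The true scale of the differences between arrays is unknown, so no fold change is given. No raw array data or probe background were used, and with 4 arrays per meal their number limits the precision. The file held 31099 probe sets. Leaving out 57 controls gave 31042 for the test. The platform annotation gave 1 symbol to 20826, several to 436 and none to 9780, covering 14217 genes; 20758 gene IDs matched the GRCr8 table and 0 symbols changed.

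Two-sided tests of the meals used limma's lmFit and eBayes (limma 3.58.1, R 4.3.3) without covariates, with Benjamini-Hochberg adjustment over all 31042 probe sets and a threshold of 0.05. The fit was tested on simulated data. Exact two-sided permutation tests ran over 70 assignments for single values and over 40320 pairings for correlations. Intervals (95%) came from the noncentral t distribution with 6 degrees of freedom (scipy 1.17.1). List scores are means of z-scores over the 8 arrays.

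The text names all probe sets of the 10 genes, a fixed list of related genes and the 5 genes most correlated with Bcat2 and with Bckdk. The genes and lists were chosen with earlier results of these data known. Alternatives were ranks in place of levels, a block for the replicate number, normalization by quantiles or by array medians, dropping arrays, weighting arrays, the brighter probe sets alone, a single probe set per gene, a robust prior with a trend, and a threshold of 0.1; centring on the median standardized deviation was added after seeing the data. Promoter windows are from RefSeq, and the Bckdha and Ppm1k windows were not used here.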

Additional observations from a re-analysis of the deposited data

Results flagged for a closer look

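Within each meal, a Dixon test compared the gap of the most distant of 4 arrays with the whole range, for 116 groups of values, and 2 exceeded the 95% critical value for groups of 4, where chance alone would give 5.8. Slc25a44, the mitochondrial carrier of branched-chain amino acids, was low in WPH replicate 2 (ratio 0.878). The satellite cell score, which rested on 1 measured marker, was high in WPH replicate 3 (ratio 0.838). Neither concerns 1 of the 14 probe sets of the 10 enzymes.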

How the results depend on the processing

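The count of 0 calls, over all probe sets and among the 14, was the same under every alternative run, with a lowest adjusted p of 0.731 for any of the 14. The count of the 14 higher after WPH was 7 as deposited, 4 of 13 with quantile normalization and 2 with median centring, and 6 to 9 with 1 array left out; of all probe sets 47.3%, 48.8% and 9.01% were higher as deposited, with quantile normalization and with median centring. Without overlap were 2 as deposited, 0 with quantile normalization, 0 with median centring, 1 among the 11 brighter probe sets and 1 with 1 value per gene, where the shares of all probe sets were 2.23%, 0.169%, 0.209%, 1.87% and 2.00%; with 1 array left out it was 2 to 3, while 4.18% to 5.32% of all probe sets did not overlap. Signs reversed with quantile normalization for Bcat2 (-1.0), Bckdhb (1.22), Ppm1k 1388778_at (-0.46), Ppm1k 1394939_at (-0.63) and Acad8 (-1.10). After it, 2705 probe sets, Hibadh among them, had the same value on all arrays and could not be tested. With median centring they reversed for Bckdha 1370897_at (-0.22), Dbt 1392740_at (-0.52), Bckdk (-0.29), Ppm1k 1388778_at (-0.064) and Ppm1k 1394939_at (-0.30); with ranks for Dbt 1392740_at (-0.39) and Ivd (0.19); and without AAM replicate 3 and WPH replicate 4 together for Bckdhb (0.27) and Hibadh (0.43). Median centring moved all probe sets of an array by 1 amount, to a median standardized difference of -0.51. In SD units the move differed with the SD of a probe set. Bckdhb, with a pooled SD of 0.519 millionths, went from -0.09 to -0.53. Dbt 1373201_at, with a pooled SD of 526 millionths, went from -0.28 to -0.30. The signs there can therefore not be read against 1 common value. The cause of the reversals was not tested, and the rank spacing given for Bcat2 is a description. With 1 array left out, values ranged from -0.14 to 1.44 for Bckdha 1370897_at, -0.96 to 0.27 for Bckdhb, -1.07 to 0.10 for Dbt 1373201_at, -0.81 to 0.42 for Dbt 1392740_at, -0.14 to 1.12 for Bckdk, -0.10 to 0.95 for Ppm1k 1388778_at and -0.61 to 0.79 for Ivd. Without a change of sign they ranged from -1.12 to -0.33 for Bckdha 1380557_at, 0.0019 to 1.12 for Ppm1k 1394939_at, -1.23 to -0.33 for Hibch and -1.09 to -0.10 for Hibadh. In all alternatives that gave them a value 2 of the 14 kept their sign, Bckdha 1380557_at and Ppm1k 1392921_at, and Hibch was at 0 with quantile normalization. Both were below 0 as deposited. With median centring 9.01% of all probe sets were higher, so a kept negative sign says little there. Centring on the median standardized deviation, added after seeing the data, reversed 0 of the 14. Unadjusted p below 0.05 was met by 1110 probe sets as deposited, 363 with quantile normalization and 172 with median centring; of the 14 it was met by 3, 0 and 0.

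The replicate numbers are shared between the meals. Same-numbered arrays correlated between -0.07 and 0.16, and 5 of 8 arrays correlated best with their own number among 4 candidates. Whether the numbers pair the rats was not tested, and the main fit does not use them. With the replicate number as a block, 0 probe sets were called, 1367 had an unadjusted p below 0.05, and Bcat2 had a standardized difference of 2.29. The unadjusted limma p of Bcat2 was then 0.0296, against 0.00371 without the block.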
